A study of Bos taurus with 12 samples.

Results

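Ubiquitin and proteasome genes were examined in the peripheral white blood cells (PWBCs) of beef heifers. The genes were chosen by symbol and by a minimum count. Every gene that the study's supplementary tables pair with a symbol, whose symbol began with PSM, UBE2, UBA, USP, FBXO, FBXW, FBXL, TRIM, RNF, CUL or OTUD, and which reached 10 counts in at least 6 of the 12 libraries, was kept. This gave 90 genes of the 27607 in the count table, and all 90 were among the 13012 genes tested. Symbols came from copies of the study's supplementary tables, some of them shortened. The rows at hand name 2930 of the counted genes, which stand there because they entered its lists of differential genes, regulators, network partners or proteins. The 90 genes are therefore those members of these families named in the rows at hand, not all members of the families or of the full tables, and shares over the named genes refer to these rows as well. Of the 90, 4 of them (RNF217, TRIM58, UBE2C and USP54) stand in the study's own list of differential genes.

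The 12 animals were Simmental-Angus cross-bred heifers in their first breeding season, all given the same synchronization with GnRH, a progesterone device and prostaglandin, and bled 2 days before artificial insemination (AI). The 6 fertile heifers, labelled Pregnant, conceived to the first AI. The 6 subfertile heifers, labelled Open, stayed non-pregnant after AI and the natural service that followed. Each heifer gave 1 poly(A) library, and reproductive tract scores were 4 in 10 heifers and 5 in fertile heifer 2 and subfertile heifer 1. Groups were formed afterwards from the breeding outcome, so the blood was taken before that outcome was known.

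Ubiquitin is a small protein that is joined to other proteins in a relay. An E1 enzyme activates it, an E2 enzyme carries it, and an E3 ligase chooses the target. Chains of ubiquitin can send the target to the proteasome, a barrel-shaped protease, while deubiquitinating enzymes remove the chains again. In blood cells the system serves antigen processing, cell division, signalling and, in red cell precursors and platelets, the remodelling of the cell's contents. Related enzymes attach the ubiquitin-like proteins SUMO, NEDD8 and ISG15.

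The libraries held between 14010736 and 21278761 counts on genes, so that 10 counts in the smallest library correspond to 0.714 CPM, the count scaled to library size. Markers of leukocytes were present in the libraries. The summed level of 5 T cell genes ran from 847.7 to 1856 CPM, that of 2 B cell genes from 366.8 to 750.5 CPM, that of 4 monocyte genes from 162.4 to 380.6 CPM and that of 4 neutrophil genes from 70.5 to 262.2 CPM. Of the neutrophil genes, CXCR2 ran from 0 CPM in fertile heifer 6 to 7.81 CPM in fertile heifer 3. Platelet genes were present as well and differed most between heifers. The summed level of 10 platelet genes ran from 574.4 to 10185 CPM in fertile heifers (median 2537) and from 557.3 to 3273 CPM in subfertile heifers (median 1501), and none of the 10 was at 0 in any library. The groups overlapped in this level (two-sided exact permutation test, P = 0.312), and the highest value was that of fertile heifer 6. Most of the sum came from TUBB1 in every library, with 349.6 CPM in subfertile heifer 1 and 7705 CPM in fertile heifer 6. These are bulk libraries, in which fewer cells of a type and less RNA per cell cannot be told apart.

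Between the fertility groups, the ubiquitin and proteasome genes as a body lay close to no change. Log2 fold changes (log2FC, subfertile against fertile) were above 0 for 49 genes and below 0 for 41, with a median of 0.013. Over all genes tested, 51.8% were above 0 and the median was 0.0076. The values ran from -0.95 for TRIM58 to 0.84 for RNF217, and 74 of the 90 were within 0.2 of 0. At the study's thresholds, P of 0.05 or less and an absolute log2FC of 0.5 or more, edgeR's quasi-likelihood test called 2 of the 90 (2.22%), beside 1.40% of all genes tested and 5.12% of the 2927 tested genes that the tables name. RNF217 was higher and USP54 was lower in subfertile heifers, beside 0.661% of all genes called higher and 0.738% called lower. DESeq2 called 4 (4.44%), beside 1.77% of all genes and 6.73% of the named genes, adding UBE2C as higher and TRIM58 as lower, beside 0.784% of all genes called higher and 0.984% called lower. The 4 genes called by either tool are the 4 in the study's list of differential genes, which was chosen on these same libraries, and none of the other 86 was called by edgeR or DESeq2 in the fits of all 12 heifers. The same 2 members were all that had P of 0.05 or less in edgeR, beside 2.62% of all genes. After Benjamini-Hochberg adjustment over all genes, no gene passed 0.05 in edgeR, where the smallest adjusted P was 0.9998, nor in DESeq2. Single genes are also given with a two-sided exact permutation test of mean log2 CPM, called exact P, whose smallest possible value is 0.00216. For no member did the CPM ranges of the groups lie apart, beside 0.123% of all genes tested.

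**Figure D1:**
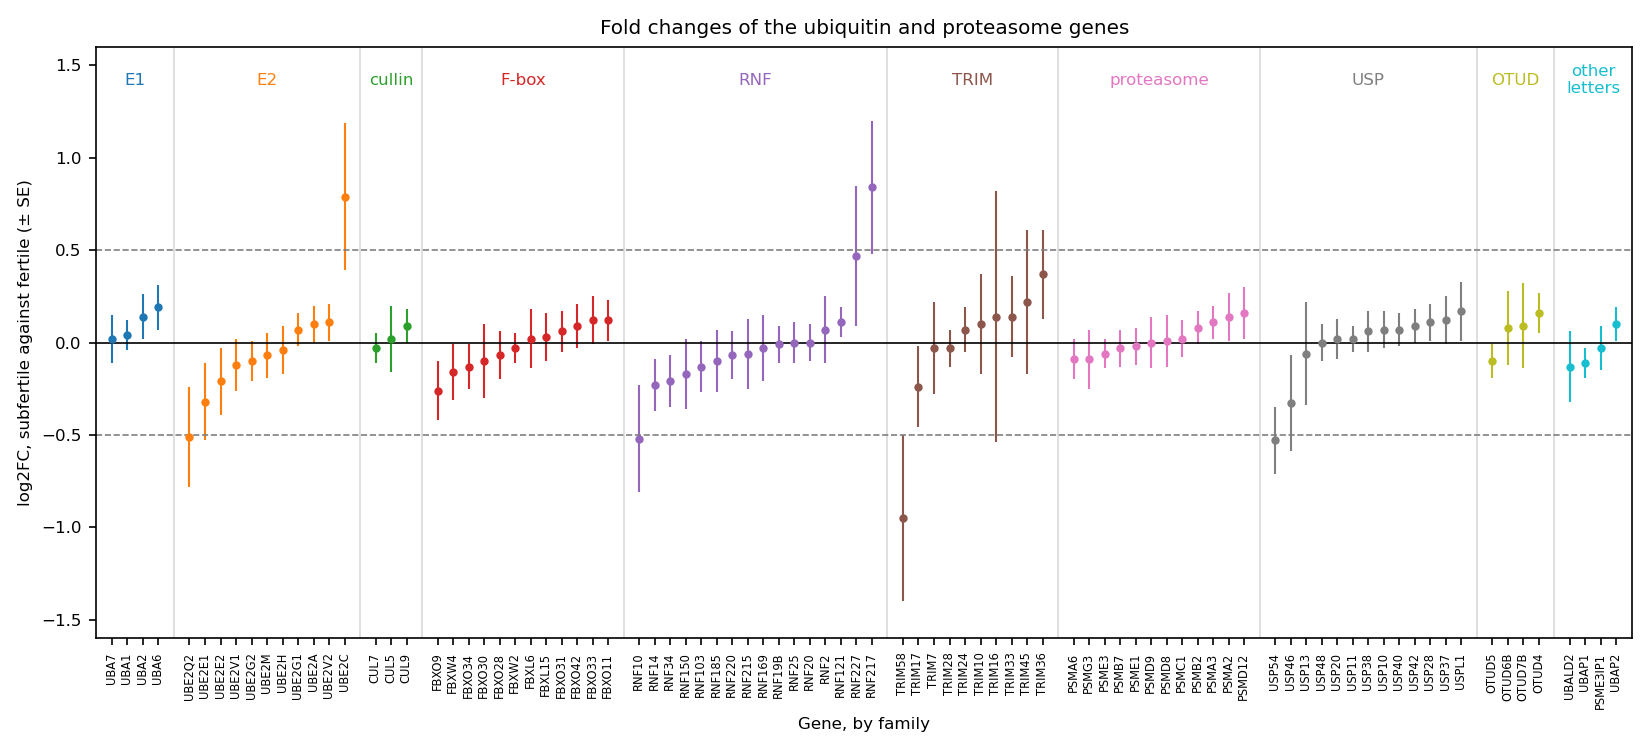
Log2FC (subfertile against fertile, vertical axis) with its standard error (bars) for the genes, grouped by family along the horizontal axis. Dashed lines mark -0.5 and 0.5. Most points sit within 0.2 of 0, and those outside the dashed lines are UBE2C and RNF217 above and UBE2Q2, RNF10, TRIM58 and USP54 below.

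The relay begins with the E1 enzymes, and the 4 described here had a positive log2FC that did not pass the test. UBA6, which activates ubiquitin and the related modifier FAT10, ran from 57.8 to 81.7 CPM in fertile heifers (median 73.2) and from 67.9 to 95.2 CPM in subfertile heifers (median 81.2), with overlapping groups (log2FC 0.19, SE 0.12, exact P = 0.134). UBA2, a subunit of the SUMO E1, had 0.14 (SE 0.12, exact P = 0.312). UBA1, the main E1 of ubiquitin, was among the steadiest members. It ran from 307.7 to 349.6 CPM in fertile heifers (median 338.1) and from 294.9 to 361.6 CPM in subfertile heifers (median 350.7), for a log2FC of 0.04 (SE 0.08, exact P = 0.517). Its SD over the 12 heifers was 0.090 on the log2 CPM scale, among the 5 smallest of the members, with USP11 (0.072), CUL7 (0.096), RNF121 (0.10) and PSME3 (0.11). UBA7, the interferon-induced E1 of ISG15, had a log2FC of 0.02 (SE 0.13, exact P = 0.931), and its lowest values were those of fertile heifer 1 (68.7 CPM) and subfertile heifer 1 (70.0 CPM).

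Of the 11 E2 enzymes and E2 variants, 4 had a positive and 7 a negative log2FC. EdgeR called none of the 11, beside 1.40% of all genes tested. UBE2C, the E2 that works with the anaphase-promoting complex to mark mitotic cyclins, ran from 3.66 to 10.0 CPM in fertile heifers (median 5.90) and from 4.21 to 26.2 CPM in subfertile heifers (median 9.38). The groups overlapped, and 1 library, subfertile heifer 3, stood at the top. The log2FC was 0.79 (SE 0.40), with P = 0.0683 in edgeR, 0.0450 in DESeq2 and 0.190 in the two-sided exact permutation test, and adjusted P was 0.9998 in edgeR. Without subfertile heifer 3 the log2FC was 0.30. It ran up to 0.98 as other heifers were left out, and edgeR called UBE2C in 3 of these 12 fits, without fertile heifer 4 (0.98), subfertile heifer 1 (0.93) or subfertile heifer 2 (0.95).

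UBE2Q2 was the E2 with the largest difference in the other direction. It ran from 36.6 to 133.6 CPM in fertile heifers (median 57.2) and from 35.1 to 57.9 CPM in subfertile heifers (median 43.6), with the highest value in fertile heifer 6. The log2FC was -0.51 (SE 0.27, edgeR P = 0.0831, exact P = 0.232) with that heifer and -0.17 without it. UBE2E1 behaved likewise, with 191.1 CPM in fertile heifer 6 against at most 110.2 CPM in any other heifer, and its log2FC of -0.32 (SE 0.21, exact P = 0.299) became -0.09 without that heifer. The remaining E2 genes lay between -0.21 and 0.11. Among them were UBE2M, which carries NEDD8 to the cullins (-0.07, SE 0.12), UBE2A, which works with RNF20 on histone H2B (0.10, SE 0.10), and UBE2G2 of the degradation pathway of the endoplasmic reticulum (-0.10, SE 0.11). The paired variants UBE2V1 (-0.12, SE 0.14) and UBE2V2 (0.11, SE 0.10), which have no catalytic site of their own and act beside UBE2N, had opposite signs. Without fertile heifer 6, UBE2V1 had 0.01 and UBE2V2 had 0.15. UBE2E2 had -0.21 (SE 0.18), UBE2G1 0.07 (SE 0.09) and UBE2H -0.04 (SE 0.13), and none of these passed the test (smallest exact P = 0.281).

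Cullins are scaffolds of the largest group of E3 ligases, and F-box proteins are the parts that hold the target. None of the 3 cullins or 12 F-box genes was called, beside 1.40% of all genes tested in edgeR and 1.77% in DESeq2. CUL9 had a log2FC of 0.09 (SE 0.09, exact P = 0.303), CUL5 0.02 (SE 0.18) and CUL7 -0.03 (SE 0.08). F-box values ran from -0.26 for FBXO9 to 0.12 for FBXO11 and FBXO33. FBXO9 ran from 222.2 to 481.1 CPM in fertile heifers (median 273.3) and from 225.5 to 272.6 CPM in subfertile heifers (median 246.6). All 6 subfertile values lay below the fertile median, and the groups overlapped (SE of log2FC 0.16, exact P = 0.221). Without fertile heifer 6, which held the highest value, its log2FC was -0.07. FBXW4 had -0.16 (SE 0.15), FBXO34 -0.13 (SE 0.12) and FBXO42 0.09 (SE 0.12). The other 6 F-box genes lay between -0.10 and 0.06.

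Among the 16 RNF genes, which encode RING-type E3 ligases and related proteins, edgeR called 1. This is 6.25%, beside 1.40% of all genes tested and 5.12% of the named genes. RNF217 (ENSBTAG00000033961), a ligase that acts on the iron exporter ferroportin, ran from 0.483 to 1.11 CPM in fertile heifers (median 0.562) and from 0.592 to 2.03 CPM in subfertile heifers (median 1.06). All 6 subfertile values lay above the fertile median, and the ranges overlapped through fertile heifer 5 at the top of its group and subfertile heifer 6 at the bottom of its own. RNF217 rose by a log2FC of 0.84 (SE 0.36, edgeR P = 0.0356, adjusted P = 0.9998; DESeq2 P = 0.0479; exact permutation P = 0.0303). This rests on 7 to 35 counts per library. The call was lost with voom (log2FC 0.74) and when genes with at least 1 count in any library were kept (log2FC again 0.84). It held in 6 of the 12 fits that left out 1 heifer each. Over all 12 of these fits the log2FC ran from 0.63 to 1.05. The lowest was that without subfertile heifer 5, where the call was lost.

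RNF10, a ligase of ribosomal proteins that is also known from red cell precursors, spread more than most members. It ran from 405.8 to 1673 CPM in fertile heifers (median 690.4) and from 364.8 to 685.9 CPM in subfertile heifers (median 569.3). Fertile heifer 6 lay far above every other heifer, the next being fertile heifer 2 at 803.0 CPM, and all 6 subfertile values were below the fertile median. The log2FC was -0.52 (SE 0.29, edgeR P = 0.0968, exact P = 0.264) with that heifer and -0.16 without it. RNF227 had a log2FC of 0.47 (SE 0.38, exact P = 0.364) from 8 to 41 counts per library, and 0.15 without subfertile heifer 4. RNF14 had -0.23 (SE 0.14) with all heifers and -0.09 without fertile heifer 6. It was among the members that rose with the platelet level described further on (slope 0.16, SE 0.05, edgeR adjusted P = 0.0373), though not in every fit that left out a heifer. RNF34 had -0.21 (SE 0.14) and RNF121, a membrane protein of the secretory pathway, had 0.11 (SE 0.08). The remaining 10 RNF genes lay between -0.17 and 0.07.

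The 10 TRIM genes encode ligases with a tripartite motif. In the fit used throughout, edgeR called none of them, beside 1.40% of all genes tested. TRIM58, which in maturing red cells marks the motor protein dynein for removal, ran from 2.27 to 23.0 CPM in fertile heifers (median 7.83) and from 1.86 to 7.43 CPM in subfertile heifers (median 4.96). The lowest values were those of subfertile heifer 1 and fertile heifer 1 and the highest was that of fertile heifer 6, so the fertile range enclosed all but 1 of the subfertile values. The log2FC was -0.95 (SE 0.45), with P = 0.0520 in edgeR, 0.0275 in DESeq2 and 0.184 in the exact permutation test. EdgeR called TRIM58 with library size alone (log2FC -0.94), with genes of at least 1 count in any library kept (-0.94) and with the reproductive tract score as a term (-1.02). Without fertile heifer 6 the log2FC was -0.45, and without fertile heifer 1 it was -1.15.

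TRIM10, another gene of red cell precursors, had a log2FC of 0.10 (SE 0.27, exact P = 0.589). TRIM36 had 0.37 (SE 0.24, exact P = 0.139), with all 6 subfertile values above the fertile median. Its log2FC was 0.23 without fertile heifer 6 and 0.52 without fertile heifer 1, where edgeR called it. TRIM36 fell with the platelet level described further on in the fit of all 12 heifers (slope -0.32, SE 0.08, edgeR adjusted P = 0.0285). In the fits without fertile heifer 1 or without subfertile heifer 1, no member fell with the platelet level. The transcriptional cofactors TRIM28 (-0.03, SE 0.10), TRIM33 (0.14, SE 0.22) and TRIM24 (0.07, SE 0.12) lay near 0. TRIM16 was the most variable member (SD 1.2 on the log2 CPM scale) and was counted 0 to 29 times per library, so that its log2FC of 0.14 had an SE of 0.68. TRIM45 (0.22, SE 0.39) also had a large spread, and TRIM17 had -0.24 (SE 0.22). The remaining TRIM gene had -0.03. The erythroid marker list held 2 genes with a symbol here (EPB42 and ANK1, summed level 1.86 to 6.16 CPM), so no relation of TRIM58 or TRIM10 with it was computed.

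**Figure D2:**
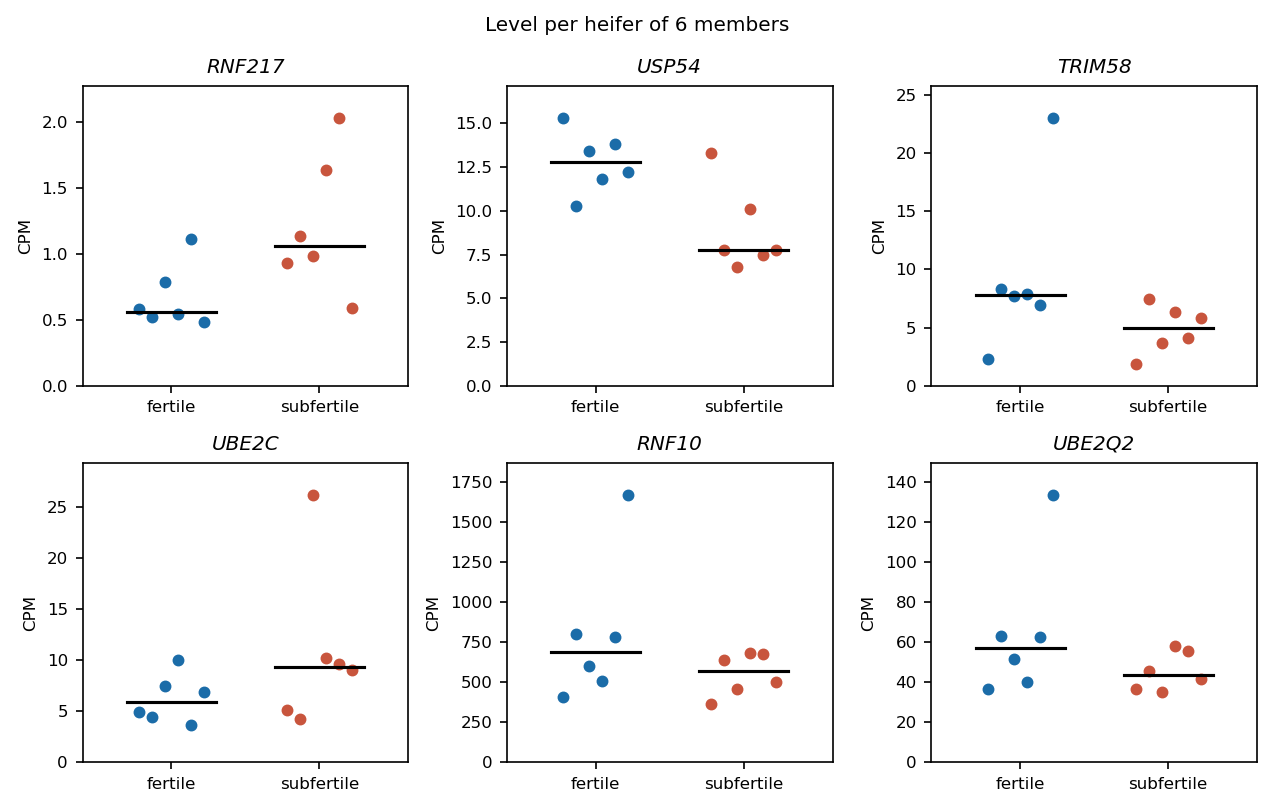
CPM (vertical axis, from 0) of 6 genes in each of the 6 fertile (blue) and 6 subfertile (red) heifers; black lines are group medians. The groups overlap in every panel, and in TRIM58, RNF10 and UBE2Q2 the top point is fertile heifer 6 (23.0, 1673 and 133.6 CPM).

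The proteasome itself differed little between the groups. Of the 12 genes for its subunits, activators and chaperones, 6 had a positive and 6 a negative log2FC, the values ran from -0.09 to 0.16, and the smallest exact P was 0.255. Standard errors were between 0.08 and 0.16. In the core particle, the alpha-ring genes PSMA2 (0.14, SE 0.13), PSMA3 (0.11, SE 0.09) and PSMA6 (-0.09, SE 0.11) had mixed signs, and the beta-ring genes PSMB2 (0.08, SE 0.09) and PSMB7 (-0.03, SE 0.10) lay near 0. In the regulatory particle, which unfolds the target, the lid gene PSMD12 ran from 45.3 to 67.2 CPM in fertile heifers (median 52.5) and from 45.2 to 75.3 CPM in subfertile heifers (median 57.3), for a log2FC of 0.16 (SE 0.14). The ATPase PSMC1 (0.02, SE 0.10) and the lid gene PSMD8 (0.01, SE 0.14) lay at 0 within their error. The interferon-induced activator PSME1 had -0.02 (SE 0.10) and the nuclear activator PSME3 -0.06 (SE 0.08). The assembly chaperones PSMG3 and PSMD9 had -0.09 (SE 0.16) and 0.00 (SE 0.14).

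Deubiquitinating enzymes were represented by 13 USP and 4 OTUD genes, of which 13 had a positive and 4 a negative log2FC. Of these genes edgeR called 1 (5.88%), beside 1.40% of all genes tested and 5.12% of the named genes. USP54 (ENSBTAG00000011108) ran from 10.3 to 15.3 CPM in fertile heifers (median 12.8) and from 6.78 to 13.3 CPM in subfertile heifers (median 7.77). Subfertile heifer 1 was the 1 animal of its group above the fertile median, and the other 5 subfertile values lay below the lowest fertile value. USP54 fell by 0.53 on the log2 scale (SE 0.18, edgeR P = 0.0104, adjusted P = 0.9998; DESeq2 P = 0.00505; exact permutation P = 0.0130). It was the 1 member that voom with limma also called, beside 1.10% of all genes. Leaving out each heifer in turn gave log2FC from -0.68 to -0.46, and in 5 of these 12 fits the call was lost because the log2FC came within 0.5 of 0.

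USP46, which is active together with WDR48, ran from 20.6 to 72.8 CPM in fertile heifers (median 29.1) and from 23.0 to 34.2 CPM in subfertile heifers (median 26.4). Its log2FC of -0.33 (SE 0.26, exact P = 0.580) turned to 0.01 without fertile heifer 6, which held the top value. USPL1, which removes SUMO rather than ubiquitin, had 0.17 (SE 0.16), USP28 0.11 (SE 0.10) and USP11 0.02 (SE 0.07). OTUD4 had 0.16 (SE 0.11) and OTUD5 -0.10 (SE 0.09). The other USP and OTUD genes lay between -0.06 and 0.12. Another 4 genes meet the rule by their letters and were not placed in any of the families above (PSME3IP1, UBALD2, UBAP1 and UBAP2). Their values lay between -0.13 and 0.10.

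Of a list of 129 further genes of the pathway without these symbol prefixes, 63 had a name in the tables and were tested. In these, 32 log2FC values were above 0 and 31 below, and edgeR called 2 (3.17%), beside 1.40% of all genes and 5.12% of the named genes. DESeq2 called 2 as well (3.17%), beside 1.77% of all genes and 6.73% of the named genes. Its total over all genes was 230, the number in the study's list of differential genes. That list was chosen on these same libraries, so the calls given here add no separate evidence. UCHL1, a deubiquitinating enzyme known best from neurons, ran from 5.88 to 27.3 CPM in fertile heifers (median 12.7) and from 3.28 to 10.0 CPM in subfertile heifers (median 7.09). The groups overlapped, with the top value in fertile heifers. UCHL1 fell by 1.01 on the log2 scale (SE 0.36, edgeR P = 0.0135, adjusted P = 0.9998, exact P = 0.0541). It was called in all 12 fits that left out 1 heifer, with log2FC from -1.17 to -0.73, the latter without fertile heifer 6. In the fit of all 12 heifers, UCHL1 also rose with the platelet level described further on (slope 0.43, edgeR adjusted P = 0.0377). KLHL15, a substrate adaptor of cullin ligases, rose by a log2FC of 0.56 (SE 0.24, edgeR P = 0.0367, exact P = 0.0455) and was called in 5 of those 12 fits. ANAPC5, a subunit of the anaphase-promoting complex, had a log2FC of 0.21 (SE 0.09, edgeR P = 0.0372, exact P = 0.0216), under the threshold of 0.5.

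The spread of the members across heifers was wider than the difference between groups. On the first principal axis of the 90 genes, which held 43.2% of their variance beside 29.9% for all genes tested, subfertile heifer 1 (12.19), fertile heifer 1 (9.42) and subfertile heifer 3 (6.37) lay at one end and fertile heifer 6 (-8.16) and subfertile heifer 5 (-6.64) at the other. The groups did not separate on it (two-sided exact permutation test, P = 0.494). Its scores had an absolute correlation of 0.99 with those of the first axis of all genes tested over the 12 heifers, so the axis was not peculiar to these genes. The 3 heifers at the high end also had the 3 largest TMM scaling factors of the 12 (1.08 to 1.11). The part of scaling in the axis was not tested.

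Proteasome genes did not move as a single block from heifer to heifer. Over the 66 pairs of the 12 genes, the correlation of log2 CPM across the 12 heifers had a median of 0.32 and ran from -0.75 to 0.83, and 16 pairs were negative. PSMC1, PSMD8, PSMD9 and PSMG3 varied together (median of 6 pairs 0.67), PSMA2, PSMA3 and PSMD12 varied together (median of 3 pairs 0.54), and the 12 pairs between these sets had a median of -0.50. The sets were picked after the values were seen. Both ends are visible in single heifers. PSMD8 was 46.4 CPM in fertile heifer 1 and 46.9 CPM in subfertile heifer 1, its lowest values, and PSMD12 was 67.2 and 75.3 CPM in the same heifers, each the highest of its group.

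The 4 E1 genes described here divided in the same way, into sets that were also picked after the values were seen. UBA2 and UBA6 had a correlation of 0.72, UBA1 and UBA7 had a correlation of 0.70, and the 4 pairs between them were all negative (median -0.52). UBA2 was 137.3 CPM in fertile heifer 1 and 140.9 CPM in subfertile heifer 1, where UBA7 was at its lowest. Over all 4005 pairs of the 90 genes the median was 0.01. All these correlations are descriptions over 12 shared libraries, which carry the same depth and scaling.

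**Figure D3:**
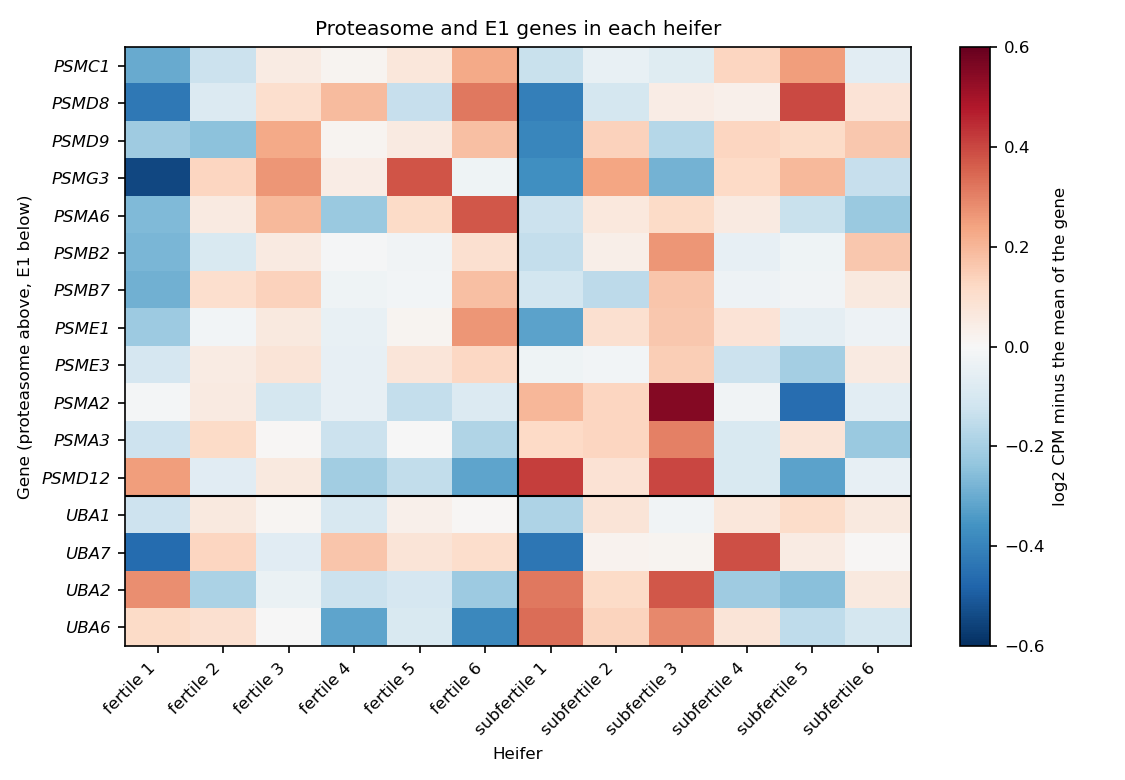
Log2 CPM of 12 proteasome and 4 E1 genes (rows) in each heifer (columns), as the difference from the mean of the gene over the 12 heifers; red is above and blue below that mean. In fertile heifer 1 and subfertile heifer 1, PSMC1, PSMD8, PSMD9, PSMG3 and UBA7 are below their means while PSMD12, UBA2 and UBA6 are above.

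Because the platelet genes differed 18.3-fold between the lowest and the highest heifer, each gene was also fitted against their summed level on a log2 scale, with fertility group as a term. This relation was chosen after the data had been seen, and 10 of the 20 listed platelet genes had a name to map by. With edgeR's quasi-likelihood test and adjustment over all genes, 20 of the 90 members were related to the platelet level (22.2%), beside 9.45% of all genes and 18.1% of the genes that the tables name. The share was close to that of the named genes. Of the 20, 13 rose and 7 fell with the platelet level, beside 6.07% of all genes rising and 3.38% falling and 13.1% and 5.01% of the named genes, and with library size alone in place of TMM scaling the numbers were 5 rising and 12 falling. Without fertile heifer 1 they were 6 and 0, and without subfertile heifer 1 they were 7 and 0. The share of all genes related to the platelet level dropped as well, to 2.74% and 3.36% in these fits, and it was 10.2% with library size alone. These 2 heifers have the lowest platelet levels.

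RNF10, TRIM58, UBE2Q2 and UBE2V1 rose with the platelet level in the fit and in all 12 fits that left out a heifer. RNF10, TRIM58 and UBE2Q2 did so with library size alone and without the group term as well. The share of all genes that held in this way is not given here, so no weight is put on the number of members that did. For each doubling of the platelet level, RNF10 rose by 0.48 on the log2 scale (SE 0.05, adjusted P = 2.8e-05 in edgeR), UBE2Q2 by 0.42 (SE 0.05, adjusted P = 0.000169), TRIM58 by 0.72 (SE 0.11, adjusted P = 0.00155) and UBE2V1 by 0.21 (SE 0.03, adjusted P = 0.00214). RNF10 had a Pearson correlation of 0.96 and a Spearman correlation of 0.94 with the platelet level over the 12 heifers (P = 1e-05 for both in a two-sided permutation test, the smallest that 100000 permutations can give). Its Pearson value was 0.90 without the 2 heifers farthest from the median (fertile heifer 6 and subfertile heifer 1), 0.96 within fertile and 0.94 within subfertile heifers. UBE2Q2 had 0.93 for both measures (permutation P = 1e-05 for both), 0.89 without the 2 farthest heifers, 0.95 within fertile and 0.90 within subfertile heifers.

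TRIM58 followed less evenly, with a Pearson value of 0.91 (permutation P = 0.00018) and a Spearman value of 0.77 (P = 0.00481). It was 0.76 without the 2 farthest heifers, 0.97 within fertile and 0.77 within subfertile heifers. UBE2V1 had 0.93 (permutation P = 0.00011) and 0.73 (P = 0.00954), with 0.80 without the 2 farthest heifers, 0.93 within fertile and 0.94 within subfertile heifers. These 4 were selected by the same relation, so the correlations describe it and add no separate evidence. The rising members also included UBE2E1 (slope 0.30, SE 0.06), USP46 (0.36, SE 0.07), FBXO9 (0.21, SE 0.05) and UBE2M (0.17, SE 0.04), and the falling ones TRIM36 (-0.32, SE 0.08), TRIM33 (-0.27, SE 0.07), USPL1 (-0.21, SE 0.05) and UBA2 (-0.16, SE 0.04). Over the 21 pairs of RNF10, UBE2Q2, TRIM58, UBE2E1, UBE2V1, USP46 and FBXO9, correlations between genes ran from 0.77 to 0.98. These genes are some of the rising members, picked after the values were seen, so their correlations add no separate evidence either.

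Of the 6 members with the most negative log2FC, TRIM58, RNF10, UBE2Q2, USP46 and UBE2E1 rose with the platelet level and USP54 was not related to it. In each of the 5 that rose the top value was that of fertile heifer 6, the heifer with the highest platelet level. This heifer also had the highest summed levels of the T cell (1856 CPM), NK cell (415.4 CPM) and erythroid (6.16 CPM) genes and the lowest of the monocyte (162.4 CPM), neutrophil (70.5 CPM) and interferon (280.3 CPM) genes. Not all genes of a list moved alike in it. Of the 2 erythroid genes, EPB42 was at its highest (5.44 CPM), but ANK1 was at 0.725 CPM, against 4.05 CPM in subfertile heifer 4. CMPK2 of the interferon list was at its highest (37.2 CPM). The part of the platelet level and of these other lists in the group differences was not tested. The 2 genes called by edgeR were not related to it, with a slope of 0.15 (SE 0.19, adjusted P = 0.651) for RNF217 and -0.10 (SE 0.08, adjusted P = 0.420) for USP54. Among the further pathway genes, 17 of 63 were related (27.0%), 12 rising and 5 falling, beside 9.45% of all genes (6.07% rising, 3.38% falling) and 18.1% of the named genes (13.1% rising, 5.01% falling). MINDY3, a deubiquitinating enzyme (slope 0.82), MARCHF2, a membrane-bound ligase (0.84), SKP1, the adaptor that joins F-box proteins to the cullin (0.57), and UBB, a gene for ubiquitin itself (0.37), rose with the platelet level. UCHL1 did as well (0.43, adjusted P = 0.0377).

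**Figure D4:**
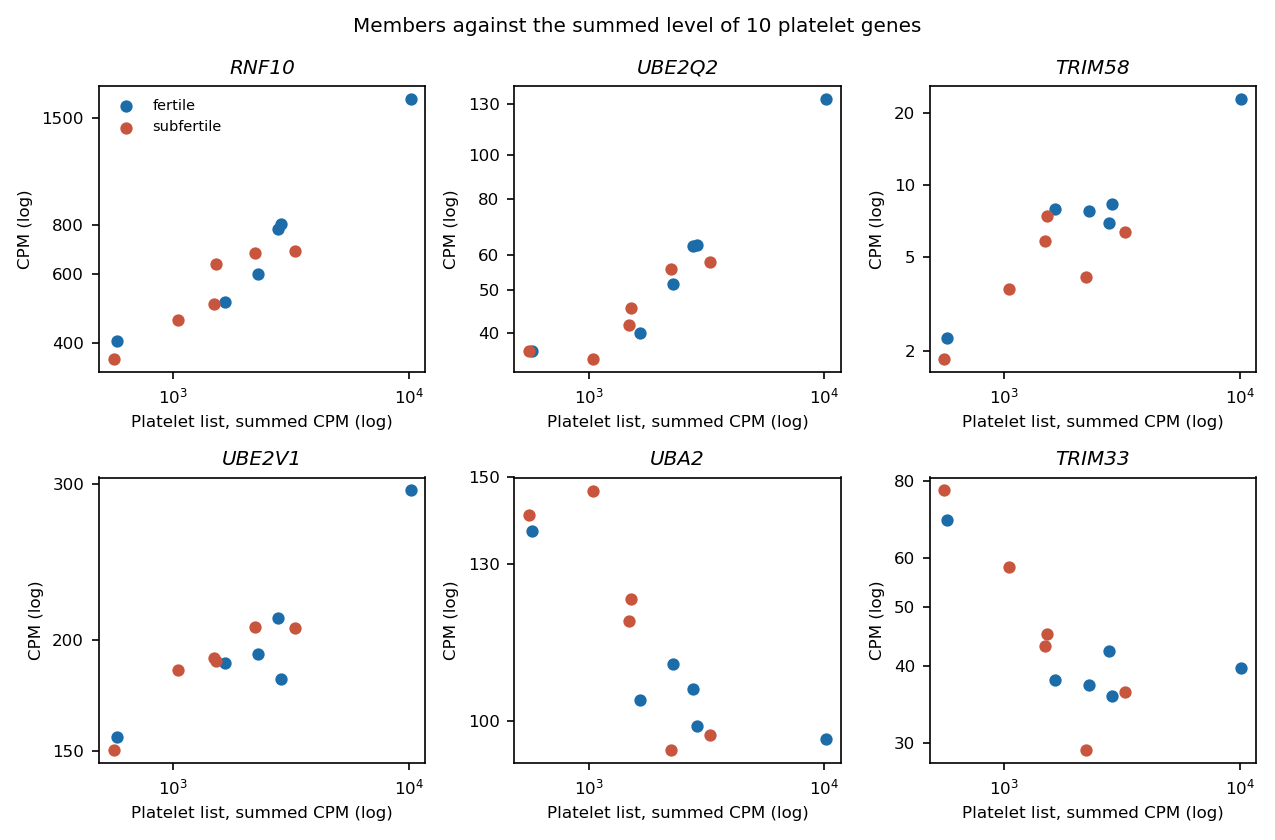
CPM of 6 genes (vertical axis, log scale) against the summed CPM of 10 platelet genes (horizontal axis, log scale), 1 point per heifer, fertile in blue and subfertile in red. RNF10, UBE2Q2, TRIM58 and UBE2V1 rise from the heifers with 557.3 and 574.4 CPM of platelet genes to fertile heifer 6 at 10185 CPM, while TRIM33 is highest in these 2 heifers and UBA2 is highest in them and in subfertile heifer 3 (1044 CPM of platelet genes).

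UBE2C was compared with cell cycle genes, and UBA7 and PSME1 with interferon-induced genes, as the 3 planned relations that were run. Those planned for TRIM58 and TRIM10 with the erythroid list were not computed, as given above. The listed genes that could be used are those named in the study's lists, which include network partners from these same libraries. UBE2C is named there as well. The permutation P values do not account for that choice. The cell cycle list held 5 genes with a name (TOP2A, MKI67, BUB1B, CENPE and RRM2), and its summed level ran from 125.9 to 204.7 CPM in fertile and from 157.9 to 586.2 CPM in subfertile heifers, the highest being subfertile heifer 3. UBE2C rose with it, with a Pearson correlation of 0.87 (two-sided permutation P = 0.0004, adjusted over the 3 relations P = 0.0012) and a Spearman correlation of 0.82 (P = 0.00185). The Pearson value was 0.89 within fertile and 0.86 within subfertile heifers. Without the 2 heifers farthest from the median, subfertile heifer 3 and fertile heifer 5, it was 0.60 (permutation P = 0.0637), so at that number of heifers the relation rests in part on those animals. The top value of UBE2C and that of the cell cycle list belonged to the same heifer, and the part of dividing cells in the difference of UBE2C between groups was not tested.

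**Figure D5:**
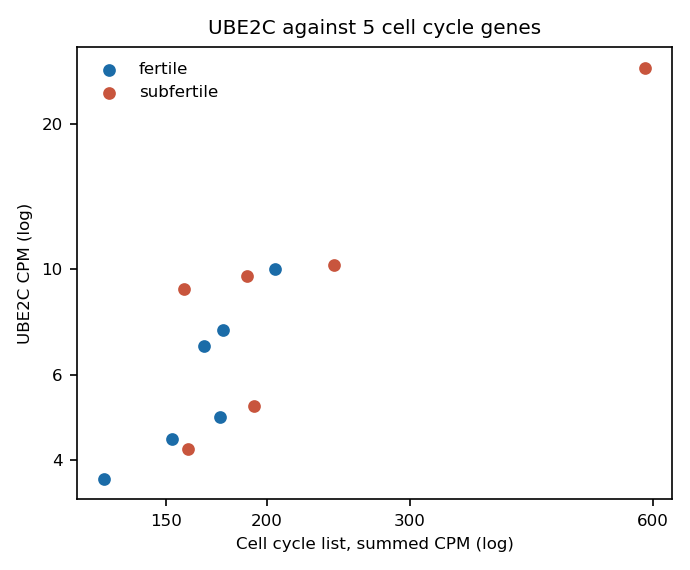
UBE2C (CPM, vertical axis, log scale) against the summed CPM of 5 cell cycle genes (horizontal axis, log scale), 1 point per heifer, fertile in blue and subfertile in red. Subfertile heifer 3 is at the top right with 26.2 CPM of UBE2C and 586.2 CPM of cell cycle genes.

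The interferon list held 5 named genes (IFI44L, RIGI, STAT2, IRF7 and CMPK2), with a summed level of 280.3 to 526.3 CPM in fertile and 304.1 to 363.5 CPM in subfertile heifers. Neither relation passed the test over the 12 heifers. UBA7 had a Pearson correlation of -0.48 (permutation P = 0.126, adjusted P = 0.126) and a Spearman correlation of -0.10 (P = 0.748). PSME1 had -0.55 (permutation P = 0.0711, adjusted P = 0.107) and -0.36 (P = 0.247). With library size alone in place of TMM scaling, PSME1 had -0.20. Fertile heifer 1 had the highest summed level, which came from STAT2 alone, at 368.5 CPM there and 91.4 to 138.3 CPM in the other heifers. Its IRF7 value of 36.0 CPM was the lowest of the 12. Without fertile heifer 1 the correlation of UBA7 was 0.06 and that of PSME1 was -0.38, and without subfertile heifer 1 that of PSME1 was -0.78 (permutation P = 0.00819). Without the 2 heifers farthest from the median, fertile heifers 1 and 6, UBA7 had 0.17 and PSME1 had -0.06.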

How the data were processed

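RNA of PWBCs from 12 heifers was sequenced as strand-specific poly(A) libraries. The authors mapped reads with STAR 2.7.5 to ARS-UCD1.3 and deposited raw counts per Ensembl gene, without normalization; the strand column used is not given in the sources used here, so reads of overlapping genes may not be separable. All count columns mapped to a sample (0 unmapped).

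Members and lists were chosen with earlier results of these data known. Symbols were paired with gene identifiers through the supplementary tables, of which some copies were shortened. Genes were filtered with filterByExpr (fertility groups, minimum count 10), scaled by TMM and tested with edgeR 4.0.16 in R 4.3.3, fertility group being the only term. DESeq2 1.42.0 and voom with limma 3.58.1 were alternatives. Genes were called at a P up to 0.05 with a log2FC of at least 0.5 in either direction. CPM uses TMM-scaled library sizes, and standard errors derive from the F statistic. Exact permutation tests compared mean log2 CPM (prior count 2) over 924 splits (smallest P 0.00216), with Python 3.11.15, numpy 2.4.6 and scipy 1.17.1. The methods were tested on simulated data.

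Named genes are those called by edgeR or DESeq2, all proteasome, E1 and E2 genes (1 E1 gene, counted among the members, is not reported here), the 3 smallest P in each direction in the other families, the 8 largest and 5 smallest SD, and TRIM10, TRIM58, UBE2H, RNF10, UBE2C, UBA7 and PSME1. Genes of the further list are named where P was 0.05 or less or, after values were seen, for the platelet relation. Each heifer is 1 sample of its group. Alternatives were other scalings, other filters on low counts, a model with reproductive tract score, and each heifer left out. Lists for NK cells (summed level 254.2 to 415.4 CPM over 4 genes) and those given with the results had 9.1% to 50.0% of their genes named, so they describe those genes only. Protein data, genome positions and sequences were not used here.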

Additional observations from a re-analysis of the deposited data

Results flagged for a closer look

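Within each group of 6 heifers, the highest or lowest value was compared with its nearest neighbour, on a log2 scale, and picked out where the gap was over 0.625 of the range of the group. Of 124 groups examined, 9 stood out, and about 1 in 20 would by chance. In fertile heifer 1, UBA2 (137.3 CPM) and TRIM33 (69.1 CPM) were far above and UBA7 (68.7 CPM) far below the other fertile heifers. In subfertile heifer 1, UBE2M (32.4 CPM) and UBE2V1 (150.1 CPM) were far below the other subfertile heifers. FBXO9 was far above its group in fertile heifer 6 (481.1 CPM). RNF121 stood apart in both groups, high in fertile heifer 3 (35.3 CPM) and low in subfertile heifer 5 (30.0 CPM), in a gene whose values all lie between 30.0 and 35.9 CPM. The summed cell cycle genes were far above the rest of the subfertile group in subfertile heifer 3 (586.2 CPM). These heifers also lie at the ends of the first axis of the members, except fertile heifer 3.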

How the results depend on the processing

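The number of members called was 2 with edgeR (1.40% of all genes tested called in the same fit), 4 with DESeq2 (1.77%), 1 with voom (1.10%), 1 with at least 10 counts in every library (1.16%; this leaves out RNF217) and 0 with at least 10 CPM in 9 libraries (0.445%; this leaves out RNF217 and USP54). As heifers were left out it ran from 0 to 4, while the share of all genes called ran from 0.896% to 2.77%. It was 4 without fertile heifer 1, where that share was 2.77%, and 0 without subfertile heifer 5, where it was 1.73%. The 4 were TRIM58 (log2FC -1.15), RNF10 (-0.65), UBE2Q2 (-0.63) and TRIM36 (0.52), and RNF217 and USP54 were not among them. RNF10, UBE2Q2 and TRIM36, which are outside the study's list of differential genes, were called in 1, 2 and 1 of the 12 fits that left out a heifer. Calls among the further pathway genes were 0 under the 10 CPM filter and 1 to 5 as heifers were left out, with 5 without fertile heifer 1, beside the same shares of all genes. Members related to the platelet list numbered 6 to 24 as heifers were left out, while the share of all genes related ran from 2.74% to 13.7%. RNF217 was not called with voom or with genes of at least 1 count in any library kept, and TRIM58 was called by edgeR with that filter, with library size alone and with the reproductive tract score as a term. Of 59 named members, 44 kept the sign of log2FC under every alternative run. CUL5 turned to -0.01 with the reproductive tract score in the model, and 15 named members turned sign when some heifer was left out. Their ranges were -0.13 to 0.10 for CUL5, -0.05 to 0.01 for CUL7, -0.03 to 0.07 for PSMC1, -0.08 to 0.09 for PSMD8, -0.05 to 0.07 for PSMD9, -0.06 to 0.04 for PSME1, -0.06 to 0.10 for UBA7, -0.11 to 0.02 for UBE2H, -0.18 to 0.01 for UBE2V1, -0.04 to 0.32 for TRIM33, -0.08 to 0.02 for TRIM28, -0.45 to 0.01 for USP46, -0.21 to 0.49 for TRIM16, -0.06 to 0.41 for TRIM45 and -0.07 to 0.28 for TRIM10. The correlation of UBE2C with cell cycle genes was 0.60 without the 2 farthest heifers. That of UBA7 with interferon genes turned to 0.17 there, and was -0.80 within fertile heifers (permutation P = 0.0944) and 0.05 within subfertile heifers. That of PSME1 was -0.94 within fertile heifers (permutation P = 0.025), -0.05 within subfertile heifers and -0.20 with library size alone. That of TRIM58 with platelet genes was 0.77 within subfertile heifers. As heifers were left out, these correlations ran, in the order given, from 0.71 to 0.92, from -0.63 to 0.06, from -0.78 to -0.38 and from 0.84 to 0.94. The causes were not tested. No paired analysis was possible because the labels give no replicate numbers shared between groups. With 6 heifers a group, the SE of log2FC ran from 0.07 to 0.68 over the members, so the precision differed from gene to gene.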
